A study of Homo sapiens with 30 samples.

Results

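The interferon-stimulated genes are 45 protein-coding genes that interferons switch on in most cell types, and they were taken as a list by name, without use of any measured value. They make up 45 of the 20136 protein-coding genes whose start sites were taken from GENCODE on the human build GRCh37. Each of the 45 was found in that annotation. Chromatin immunoprecipitation sequencing (ChIP-Seq) had been used to study where SAP30 acts on the genome of MDA-MB-231 cells, a line established from triple-negative breast cancer. SAP30 is a subunit of the SIN3 corepressor complex, a histone deacetylase complex built on the scaffold proteins SIN3A and SIN3B. The parental cells were profiled for SAP30, SIN3A and SIN3B, while RNA polymerase II (Pol II), H3K4me3 and H3K9Ac were profiled in parental and in SAP30-KO1 cells, in which SAP30 had been disrupted by CRISPR/Cas9 and which were a mixture of several knockout clones. This gave 9 groups of 2 replicate libraries, 18 lists of peak summits in all. No interferon treatment is named in the labels, so the lists describe these genes in cells kept in ordinary medium.

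Type I and type III interferons act through receptors and JAK kinases on a complex that contains STAT2 and IRF9 and binds the interferon-stimulated response element. Interferon gamma acts in large part through the gamma-activated site and through IRF1. The products of these genes sense viral RNA, degrade it, block translation or viral entry, modify proteins with ISG15, or load peptides on MHC class I molecules. H3K4me3 and H3K9Ac mark the start sites of active or poised genes, and Pol II shows where the transcribing enzyme sits.

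Each list held between 10861 (SIN3A) and 54622 (H3K9Ac) summits, with a score that reflects the strength of the evidence for the peak. The sequencing depth is unknown, so scores were compared only through the rank of a summit within its own list, where 0% is the best and 100% the weakest summit. The value of a gene in a library was the rank of its best summit within 1000 bp of a start site, called here its promoter peak. A rank is a position in a list and not a level of binding, and the lists hold only peaks with a q-value under 0.05. Nothing in the sources says that replicates came from separate cultures, so the spread between them may be technical. Between 0.287% and 1.24% of the summits of a pair of replicates fell on the same base, so no list copied another. The ranks of the interferon-stimulated genes differed between parental replicates by a median of 3.75 points for H3K9Ac, 4.69 for H3K4me3, 7.70 for SAP30, 9.52 for Pol II, 19.5 for SIN3A and 20.4 for SIN3B. The cell line was checked against marker genes. VIM, CD44, CAV1 and AXL, markers of mesenchymal breast cancer lines, had H3K4me3 and Pol II promoter peaks in every library of both lines. The luminal genes ESR1, PGR, FOXA1 and GATA3 had no Pol II promoter peak in any library, although ESR1, PGR and FOXA1 carried H3K4me3.

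The promoters were searched in GRCh37, from 250 bases before to 50 bases after the canonical start site, on both strands, for the core of the response element, GAAANNGAAA. A core was present in 29 of the 45 promoters (64.4%), compared with 3.3% of 19843 promoters of all protein-coding genes. The gamma-activated site, TTCNNNGAA, was present in 12 (26.7%), compared with 6.5% of all. In the RefSeq promoter table, on build GRCh38.p14, 37 of the genes were listed and 24 of them (64.9%) held the response element core, compared with 3.17% of 15843 promoters. IFIT2, IFITM2, IRF7, MX2, OAS2, OASL, TRIM22 and USP18 were not in that table. The 120 bases before the canonical start site follow in GRCh37, 5′ to 3′ on the strand of the gene, with each core in capitals. ISG15, IFIT1, DDX60, HERC5 and IFITM3 are shown because they had a SAP30 promoter peak and a core in the printed bases. IFI44 is shown because it had Pol II without SAP30. OAS1 and CMPK2 are shown because their peaks differed between the lines, and these bases hold no match to the core.
ISG15 (chr1:948757-948876, plus strand): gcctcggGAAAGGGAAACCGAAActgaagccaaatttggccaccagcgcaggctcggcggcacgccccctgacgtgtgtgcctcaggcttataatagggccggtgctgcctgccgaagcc
IFIT1 (chr10:91152260-91152379, plus strand): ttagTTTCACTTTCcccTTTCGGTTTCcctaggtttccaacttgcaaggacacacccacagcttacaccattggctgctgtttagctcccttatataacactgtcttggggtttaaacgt
DDX60 (chr4:169239904-169240023, minus strand): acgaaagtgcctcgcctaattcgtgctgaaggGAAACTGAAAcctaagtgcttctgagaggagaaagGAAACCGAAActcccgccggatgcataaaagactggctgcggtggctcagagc
HERC5 (chr4:89378150-89378269, plus strand): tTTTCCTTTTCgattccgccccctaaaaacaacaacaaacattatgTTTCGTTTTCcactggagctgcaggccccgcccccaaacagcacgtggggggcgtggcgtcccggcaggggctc
IFITM3 (chr11:320861-320980, minus strand): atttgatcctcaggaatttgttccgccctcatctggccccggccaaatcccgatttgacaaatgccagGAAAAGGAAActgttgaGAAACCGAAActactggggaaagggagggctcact
IFI44 (chr1:79115396-79115515, plus strand): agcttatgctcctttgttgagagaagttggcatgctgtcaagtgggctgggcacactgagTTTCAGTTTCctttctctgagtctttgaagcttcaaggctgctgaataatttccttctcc
OAS1 (chr12:113344647-113344766, plus strand): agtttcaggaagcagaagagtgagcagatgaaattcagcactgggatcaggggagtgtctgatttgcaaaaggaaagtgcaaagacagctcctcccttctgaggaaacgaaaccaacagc
CMPK2 (chr2:7006039-7006158, minus strand): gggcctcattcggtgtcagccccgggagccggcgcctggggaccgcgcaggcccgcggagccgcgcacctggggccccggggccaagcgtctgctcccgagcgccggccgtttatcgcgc
The capitals read as GAAA spacer GAAA on the strand of ISG15, DDX60 and IFITM3, and as its reverse complement at IFIT1, HERC5 and IFI44. At ISG15 the 2 cores overlap and form a single run of capitals. A match is a stretch of letters and does not show that a factor was bound there. The pattern asks for a spacer of exactly 2 bases, so a missing match does not show that a response element is absent. The OAS1 stretch holds gaaacgaaa, with a shorter spacer, which was not counted.

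Almost all interferon-stimulated genes were marked at their start sites in parental cells, and most carried Pol II and SAP30, but few carried SIN3A. H3K4me3 was present in both parental replicates at 43 of 45 genes (95.6%, all protein-coding genes 63.7%), and H3K9Ac at 42 (93.3%, all 61.2%). SAP30 occupied 36 of them (80%, all 61.1%) and Pol II 31 (68.9%, all 57.6%). SIN3B was present at 21 (46.7%, all 51.6%) and SIN3A at 6 (13.3%, all 31.4%). The genes were chosen with earlier results of these data known, so these shares are descriptions.

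**Figure D1:**
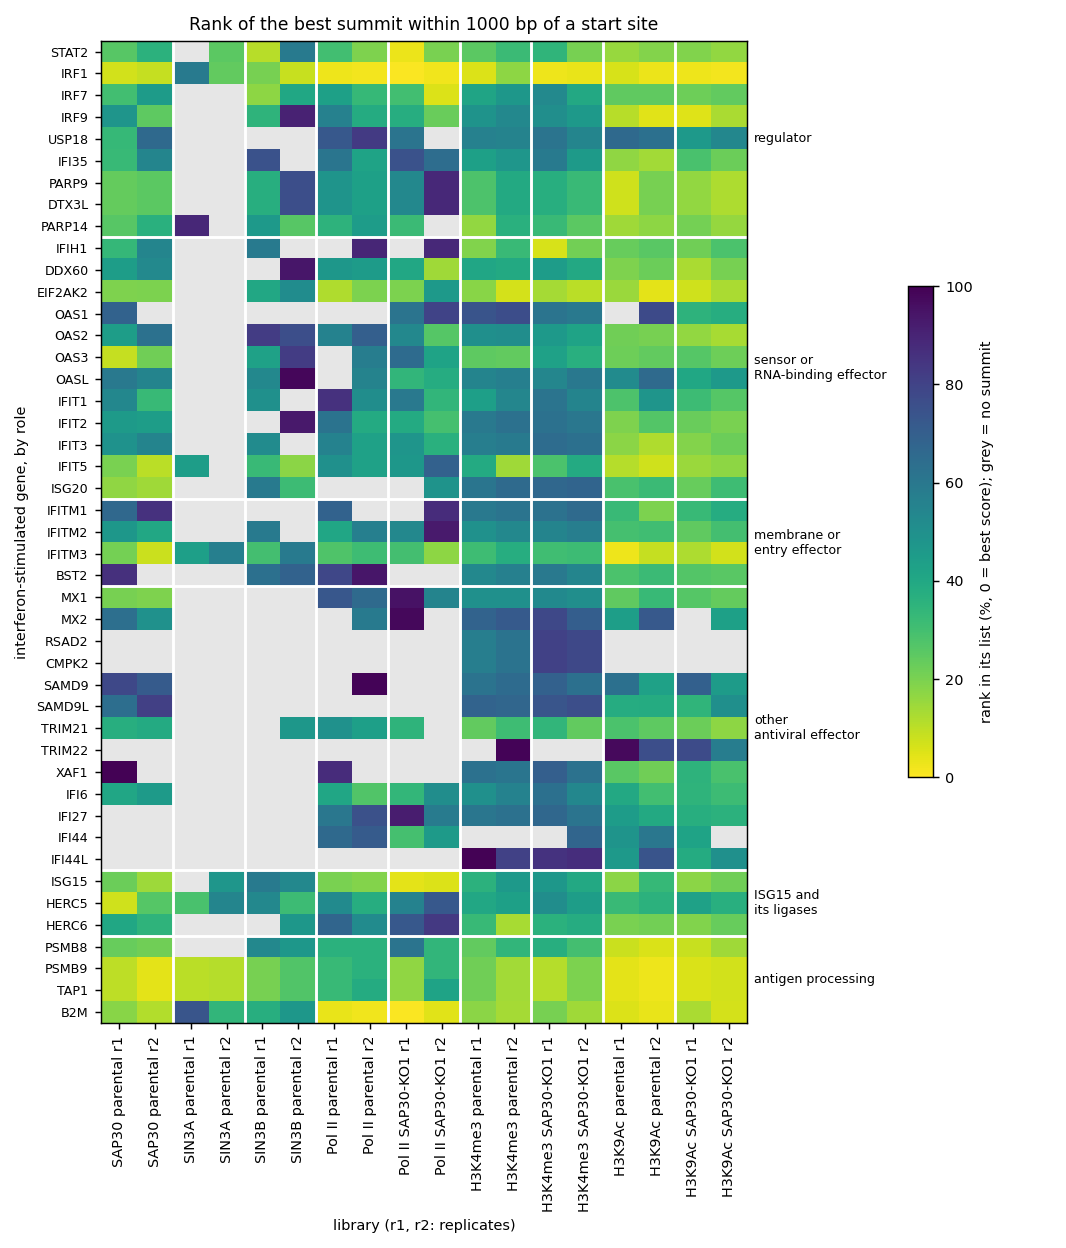
Rank of the best summit within 1000 bp of a start site for the 45 interferon-stimulated genes (rows, grouped by role) in the 18 libraries (columns, r1 and r2 are replicates), from 0% (yellow, best) to 100% (dark, weakest), with grey where the list held no such summit. The antigen processing genes and IRF1 are yellow to light green in most columns, the SIN3A columns are grey for 35 genes in both replicates, and RSAD2 and CMPK2 are coloured in the 4 H3K4me3 columns alone.

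The peaks were of middling strength. Over genes with a peak in both replicates, the median of the mean ranks was 37.0% for SAP30 at interferon-stimulated genes, compared with 17.1% over all protein-coding genes. For Pol II it was 46.1% compared with 25.5%, for H3K4me3 48.9% compared with 23.7%, for SIN3B 45% compared with 21.6%, and for H3K9Ac 24.0% compared with 12.2%. For SAP30, Pol II and the 2 marks, the interferon-stimulated genes thus had peaks in a larger share than all genes in the deposited lists, but peaks that stood lower in them. When each of the 18 lists was limited to its 10861 best summits, the length of the shortest, the order of the shares turned for these 4 targets. SAP30 was then present at 15 of the 45 genes (33.3%) and at 44.8% of all genes, parental H3K4me3 at 21 (46.7%) and 52.6%, Pol II at 18 (40%) and 47.1%, and H3K9Ac at 13 (28.9%) and 41.7%. SIN3A stayed at 6 genes (13.3%) and 31.1% of all, and SIN3B was present at 6 (13.3%) and 36.9%. For SAP30, Pol II and the marks, the side of the all-gene share on which these genes fell therefore depended on how far down the lists were read. The shares with SIN3A and with SIN3B lay below those of all genes at both lengths. The SIN3A lists held 11115 and 10861 summits, so the limit left them almost unchanged. It could therefore not show how the SIN3A share depends on list length.

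**Figure D2:**
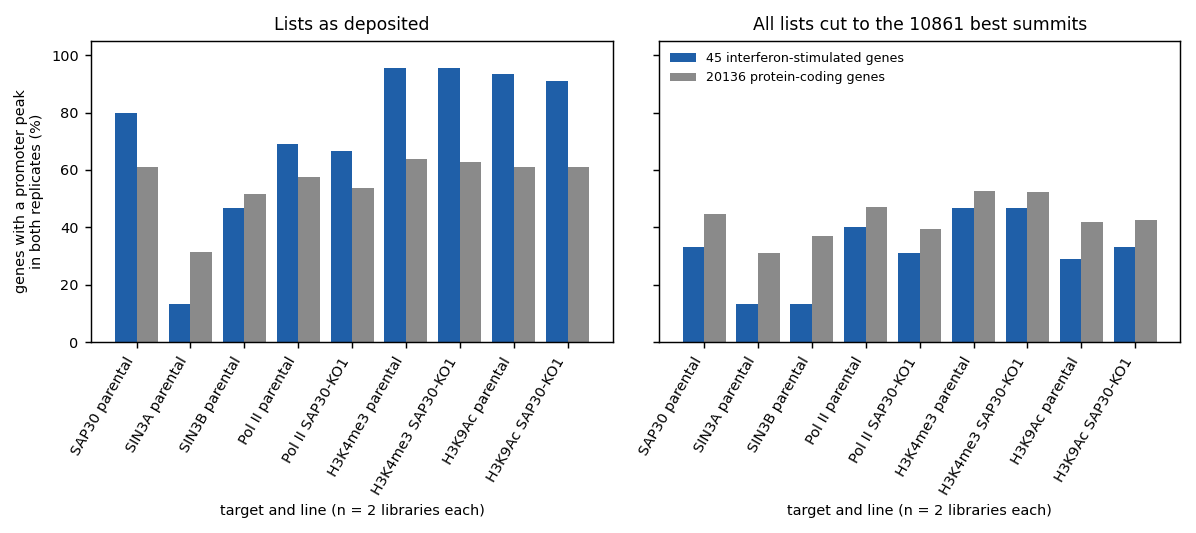
Share of the 45 interferon-stimulated genes (blue) and of all 20136 protein-coding genes (grey) with a promoter peak in both replicates, by target and line, in the lists as deposited (left) and with each list limited to its 10861 best summits (right). For SAP30 the blue bar falls from 80%, above the grey bar, to 33.3%, below it. For SIN3A, whose lists were hardly shortened by the limit, it is 13.3% on both sides.

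By role, the 4 genes of antigen processing had the best-ranked peaks, with a median SAP30 rank of 10.9%, compared with 18.6% for ISG15 and its ligases, 31.2% for the regulators, 43.7% for the membrane proteins, 43.9% for the sensors and RNA-binding effectors and 49.9% for the other antiviral effectors. PSMB8 and PSMB9, subunits of the immunoproteasome, TAP1, a peptide transporter, and B2M, the light chain of MHC class I, each carried SAP30, SIN3B, Pol II and both marks in both parental replicates. PSMB9 and TAP1 share a promoter region, with 376 bp between their nearest start sites, and the same SAP30 summit served both. It ranked at 10.0% and 3.97%, with SIN3A at 10.2% and 11.3% and H3K9Ac at 4.23% and 2.40%. B2M ranked at 17.8% and 11.6% for SAP30 and at 3.37% and 2.11% for Pol II. PATL2 has a start site 190 bp from that of B2M, so the B2M peaks cannot be assigned to either gene. The peak of each antigen processing gene lay in the upper part of the lists for most targets.

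The 9 regulators all carried SAP30, Pol II and both marks. IRF1, the interferon regulatory factor that interferon gamma induces, had SAP30 at 6.66% and 8.83%, Pol II at 2.37% and 1.69%, and H3K9Ac at 6.03% and 2.75%. STAT2 and IRF9, subunits of the response complex, and IRF7, which amplifies interferon production, carried SAP30 at mean ranks of 30.8%, 36.3% and 37.7%. USP18, which removes ISG15 and restrains the receptor, had SAP30 at 33.2% and 65.7% and neither SIN3 protein. PARP9 and its partner DTX3L, a ubiquitin ligase, start 23 bp apart on opposite strands. They had the same best summit in all 16 libraries with a peak, so they are 1 region in these data.

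Among the 12 sensors and RNA-binding effectors, 11 carried SAP30, 7 Pol II and none SIN3A in both parental replicates. OAS3, which makes the messenger that activates RNase L, had the best SAP30 peak of the OAS family, at 8.76% and 21.7%. OAS1 had a SAP30 peak in replicate 1 alone, at 68.6%. ISG20, an exonuclease, had SAP30 at 16.5% and 14.1% but no parental Pol II peak, and the nearest Pol II summits lay 14331 and 13287 bp from its start sites. The IFIT genes, which bind viral RNA with foreign 5′ ends, each carried SAP30 and Pol II in both replicates, with SAP30 mean ranks between 15.3% at IFIT5 and 52.1% at IFIT3. IFIT5 starts 11 bp from LIPA on the other strand, and IFIH1 lies 350 bp from GCA, so their peaks cannot be assigned to either neighbour.

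The membrane proteins IFITM1, IFITM2 and IFITM3, which block viral entry, carried SAP30, and IFITM3 ranked best, at 20.8% and 8.17%. The SAP30 summits of IFITM1, at positions 310241 and 310187 of chromosome 11, lay at another start than the canonical start at 314040. BST2, which tethers budding virus, had SAP30 in replicate 1 alone, at 86.2%. ISG15, the ubiquitin-like modifier, had SAP30 at 22.7% and 14.5% and Pol II at 20.3% and 18.4%. HERC5, its ligase, carried SAP30, SIN3A and SIN3B, with SAP30 at 7.36% and 26.4%.

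The 13 other antiviral effectors had the sparsest occupancy. SAP30 was present in both replicates at 6 of them and Pol II at 5, while neither SIN3A nor SIN3B was present in both replicates at any. RSAD2 (viperin) and CMPK2, a mitochondrial nucleotide kinase, had H3K4me3 and none of the other 5 targets in any library, and the nearest SAP30 summit to CMPK2 lay 1237133 bp away. IFI27 and IFI44 had parental Pol II without SAP30. IFI27 had Pol II at 60.4% and 75.3%, and its nearest SAP30 summits lay 18724 and 18463 bp away. IFI44 had Pol II at 65.6% and 71.3%, with SAP30 summits 1670 and 1243 bp from its start site, just outside the window. SAMD9L, a translation inhibitor, was the reverse case, with SAP30 at 63.9% and 81.2% and no Pol II peak in any library. MX1, a dynamin-like GTPase that traps viral capsids, had SAP30 at 20.5% and 19.4%, and its best summit lay at another start than the canonical start in 13 libraries. TRIM22 had H3K9Ac in both parental replicates and H3K4me3 in replicate 2 alone, at 98.9%.

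The SIN3 scaffolds were then counted at promoters with SAP30, with no test, since the genes share their libraries. Of the 36 genes with SAP30, 6 also had SIN3A (16.7%, compared with 50.5% of all SAP30 promoters) and 20 had SIN3B (55.6%, compared with 82.8%). SAP30 came with both SIN3A and SIN3B at IRF1, IFITM3, HERC5, PSMB9, TAP1 and B2M (13.3% of the 45, all genes 30.1%). It came with SIN3B and no SIN3A peak at 10 genes (22.2%, all 8.85%), IRF7, IRF9, PARP9, DTX3L, EIF2AK2, OAS2, OAS3, OASL, ISG20 and PSMB8. At STAT2, PARP14, IFIT5 and ISG15 (8.89%, all 11.6%) it came with SIN3B and with SIN3A in 1 replicate. At ISG15 the SIN3B summit of replicate 1, at position 935968 of chromosome 1, lay at another start than the SAP30 summits at 948876 and 948807. HES4 has a start site 966 bp from that start of ISG15, so this SIN3B summit cannot be assigned to either gene. The best summit of ISG15 lay away from the canonical start in 3 libraries. IFI35, IFIH1, DDX60, IFIT1, IFIT2, IFIT3, IFITM2, TRIM21 and HERC6 (20%, all 3.39%) had SIN3B in 1 replicate and no SIN3A. USP18, IFITM1, MX1, MX2, SAMD9, SAMD9L and IFI6 had neither. This last class held 15.6% of the interferon-stimulated genes and 4.91% of all genes. OAS1, BST2 and XAF1 had SAP30 in 1 replicate, and RSAD2, CMPK2, TRIM22, IFI27, IFI44 and IFI44L had none.

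SIN3A followed the SAP30 rank at all promoters, so the comparison was repeated within bands of the mean SAP30 rank. At promoters with SAP30 in the best 20% of the lists, 6 of 12 interferon-stimulated genes had SIN3A (50%), compared with 79.2% of all genes. Between 20% and 40%, 0 of 9 had SIN3A, compared with 15.9%. Between 40% and 60% it was 0 of 12, compared with 0.524% of all genes, and beyond 60% it was 0 of 3, compared with 0.637%. For SIN3B the shares in these bands were 11 of 12 (91.7%) compared with 97.0%, 7 of 9 (77.8%) compared with 78.9%, 2 of 12 (16.7%) compared with 30.5%, and 0 of 3 compared with 5.94%. In the first 2 bands the SIN3A share of interferon-stimulated genes lay below that of all genes by a wider margin than the SIN3B share. These bands did not hold the SAP30 rank fixed, since SIN3A fell from 79.2% to 15.9% of all genes between them. In the best band PSMB9, TAP1 and IRF1, all with SIN3A, had mean SAP30 ranks of 6.99%, 6.99% and 7.75%. The next gene, IFITM3, stood at 14.5%. PSMB9 and TAP1 also had the same SAP30 and SIN3A summits. The margins therefore cannot show whether SIN3A was rarer at interferon-stimulated genes at an equal SAP30 rank. No test was made of the shares, since the genes of a band are not replicates.

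**Figure D3:**
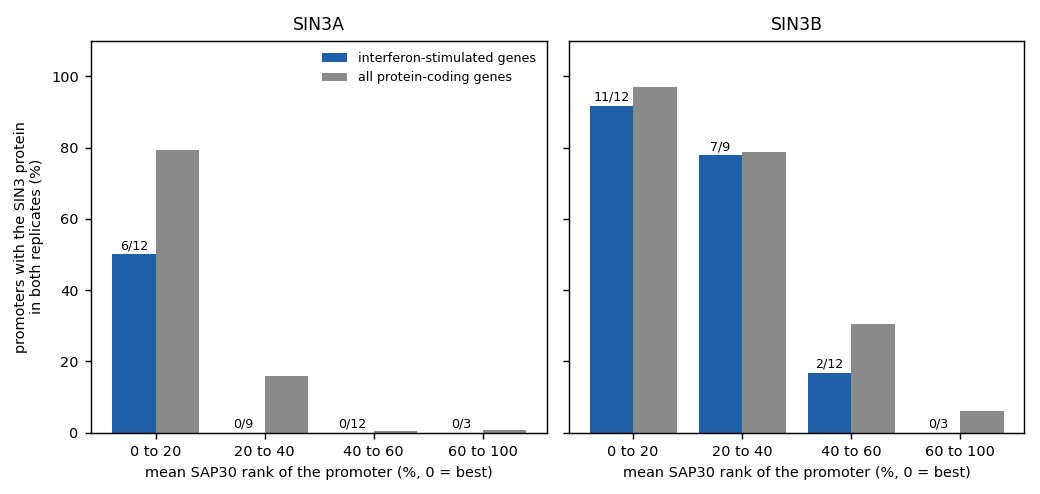
Share of promoters with SIN3A (left) or SIN3B (right) in both replicates, by the mean SAP30 rank of the promoter, for interferon-stimulated genes (blue, with their counts above the bars) and all protein-coding genes (grey). SIN3A is found at 6 of 12 interferon-stimulated genes in the best band and at none beyond it, and the grey SIN3A bars fall from 79.2% to under 1%.

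The promoters also differed in base composition. This was read at the canonical start, while peaks could lie at another start, as at MX1, RSAD2 and IFITM1. Over the 300-base windows, the median GC content of the interferon-stimulated genes was 55.7%, compared with 63.7% over all protein-coding genes. The ratio of observed to expected CpG dinucleotides, which is high in CpG islands, had a median of 0.492 compared with 0.777. Among genes with SAP30 it was 0.605 for the interferon-stimulated genes and 0.863 for all, and it was 0.170 for the 9 interferon-stimulated genes without SAP30 in both replicates. The 6 with SIN3A had a median of 0.768. CpG content moved with SIN3A in all genes too. Among SAP30 promoters with a ratio of 0.6 to 0.8, SIN3A was found at 3 of 12 interferon-stimulated genes (25%) and at 46.2% of all genes, and above 0.8 at 2 of 7 (28.6%) and 55.9%. Between 0.4 and 0.6 it was found at 0 of 6 and 34.4%, and below 0.4 at 1 of 11 (9.09%) and 20.3%. The part of CpG content in the SIN3A shares was not tested further. The response element core was present in 24 of the 36 genes with SAP30 (66.7%) and in 5 of the 9 without it in both replicates (55.6%).

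**Figure D4:**
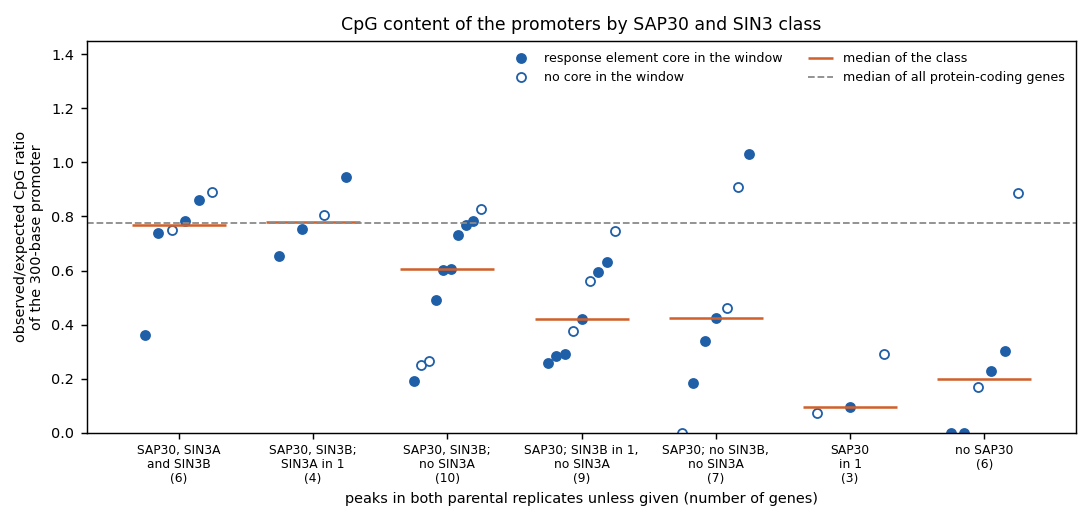
Observed over expected CpG ratio of the 300-base promoter for each of the 45 interferon-stimulated genes (points, filled where the window holds a response element core), by the peaks of SAP30, SIN3A and SIN3B in the parental line, with the median of each class (orange) and of all protein-coding genes (dashed, 0.777). The 6 genes with all 3 proteins lie around a median of 0.768, and 8 of the 9 genes without SAP30 in both replicates lie below 0.4. The promoter is that of the canonical start, also where a peak lay at another start.

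Summits sat close to the start sites. The best Pol II summit lay a median of 41.0 and 34.5 bp from the nearest start site in the parental replicates, compared with 59 and 57 bp over all genes. SAP30 summits lay 87.0 and 108 bp away, compared with 119 and 116 bp. H3K4me3 summits were shifted into the gene, with a median of 134 and 141 bp downstream, compared with 161 and 168 bp. Among genes with a response element core and a peak, 10 of 23 Pol II summits in parental replicate 1 and 14 of 25 in replicate 2 lay within 100 bp of the nearest core. For SAP30 it was 7 of 25 and 7 of 24, and for H3K4me3 1 of 28 and 0 of 28. Cores were read at the canonical start, so a summit at another start could lie far from them, up to 11780 bp for H3K4me3. Cores and most of these summits lie near start sites, and no test of the distance was made.

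Pol II, H3K4me3 and H3K9Ac were then set beside each other in SAP30-KO1 and parental cells. SAP30-KO1 is the only knockout line among these samples, with no second guide, scrambled control or rescue line. The absence of SAP30 therefore cannot be told apart from other differences between the lines. The lists do not show whether SAP30 protein was absent, and the samples include no SAP30 library of the knockout. The paper reports that its knockout cells were checked by immunoblot. Differences are given in rank points, SAP30-KO1 minus parental, so a negative value means a better rank in the knockout. They were tested with limma, with Benjamini-Hochberg adjustment over all protein-coding genes that had a promoter peak in the 4 libraries of the target. For a single gene an exact permutation test of 2 libraries against 2 could not go below p = 0.33.

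Most interferon-stimulated genes kept their peaks. Of the 31 genes with Pol II in both parental replicates, 27 had it in both knockout replicates, compared with 10702 of 11591 over all genes. USP18, PARP14 and TRIM21 had Pol II in 1 knockout library and BST2 in neither. For H3K4me3 it was 43 of 43 (all 12527 of 12821) and for H3K9Ac 40 of 42 (all 12044 of 12332). In SAP30-KO1 cells Pol II was present in both replicates at 30 genes (66.7%, all protein-coding genes 53.7%), H3K4me3 at 43 (95.6%, all 62.6%) and H3K9Ac at 41 (91.1%, all 60.9%). A peak in both parental and neither knockout library was called lost, and the reverse gained. Pol II was lost at BST2 alone (1 of 45, all 1.34%) and gained at OAS1 alone (1 of 45, all 0.134%). H3K4me3 was lost at 0 (all 0.914%) and gained at 0 (all 0.104%), and H3K9Ac was lost at 0 (all 0.422%) and gained at 0 (all 0.328%). The median rank change was -0.677 points for Pol II over 27 genes, compared with 1.48 over 10702 genes. It was 2.27 points for H3K4me3 over 43 genes, compared with 2.09 over 12527, and 0.442 points for H3K9Ac over 40 genes, compared with 0.310 over 12044. The values depended on which genes were read. Among genes with a parental mean rank of 30 to 70%, the median Pol II change was 5.88 points over 21 interferon-stimulated genes and 1.08 over 3841 genes, so its sign turned. The median H3K4me3 change was then 2.37 points over 27 and 2.78 over 4396 genes, and that of H3K9Ac -3.92 points over 11 and -1.39 over 1174 genes.

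By role, Pol II in both replicates went from 7 of 12 sensors and RNA-binding effectors in parental to 10 of 12 in SAP30-KO1 cells, with OAS1, OAS3 and OASL added, of which OAS3 and OASL had Pol II in 1 parental library. It went from 9 to 7 of the 9 regulators, where USP18 and PARP14 had Pol II in 1 knockout library. These were the roles with the largest moves, in opposite directions. Membrane proteins went from 3 to 2 of 4 and other antiviral effectors from 5 to 4 of 13, and the remaining roles kept their counts. The share of all protein-coding genes went from 57.6% to 53.7%.

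BST2 and OAS1 stood at the weak end of the Pol II lists. BST2 had Pol II at 78.7% and 93.8% in the parental libraries, with summits at -725 and -136 bp from its nearest start site, and the nearest knockout summits lay 14068 and 13682 bp away. When each list was limited to the 20736 summits of the shortest of the 4, this loss was no longer counted. The limit removed the peak of parental replicate 2 and added no knockout peak. H3K9Ac at BST2 stayed, at 28.5% and 31.8% in parental and 26.7% and 25.8% in knockout libraries, as did H3K4me3. OAS1, the interferon-induced synthetase that starts the RNase L pathway, had Pol II at 61.4% and 79.9% in the knockout and none in the parental libraries. Its H3K4me3 peak ranked at 73.9% and 76.5% in parental and at 61.7% and 59.7% in knockout libraries, a difference of -14.6 points (SE 4.1, limma adjusted p = 0.104) that missed the threshold. H3K9Ac was present at 77.4% in 1 parental library and at 35.5% and 37.9% in both knockout libraries. The knockout peaks of OAS1 thus ranked ahead of both parental H3K4me3 peaks and of the single parental H3K9Ac peak, and for Pol II there was no parental peak to compare.

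For Pol II, limma called 0 of 27 interferon-stimulated genes at an adjusted p under 0.05 (all genes 0.0% worse and 0.0% better), and 2 of 27, IFI44 and ISG15, had an unadjusted p under 0.05 (all 6.82%). Both knockout ranks were worse than both parental ranks at 5 of 27 (all 24.2%), IFI35, PARP9, DTX3L, HERC5 and HERC6, and better at 6 of 27 (all 15.4%), IRF7, IRF9, DDX60, OAS2, IFI44 and ISG15. IFI44 ranked at 65.6% and 71.3% in parental and at 29.6% and 45.4% in knockout libraries, a difference of -31.0 points (SE 11.1, limma adjusted p = 0.686). OAS2, a relative of OAS1 in the same cluster on chromosome 12, ranked at 55.6% and 69.5% in parental and at 53.2% and 26.2% in knockout libraries, a difference of -22.9 points (SE 12.9, limma adjusted p = 0.697). IRF7 moved from 43.0% and 32.9% to 30.1% and 5.20%. These 3 genes were named because both knockout ranks were better, and at each of them the knockout libraries lay far apart from each other.

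ISG15 was singled out after its values were seen. Its Pol II peak ranked at 20.3% and 18.4% in parental and at 3.93% and 5.35% in knockout libraries, a difference of -14.7 points (SE 3.8, limma adjusted p = 0.686). The lines did not overlap and replicates were close, yet the H3K4me3 ranks of ISG15 overlapped, at 35.8% and 46.0% in parental and 47.0% and 39.6% in knockout libraries. In the other direction, the shared promoter of PARP9 and DTX3L had Pol II at 48.4% and 43.2% in parental and at 53.2% and 88.6% in knockout libraries, a difference of 25.1 points (SE 14.8, limma adjusted p = 0.700), most of it from replicate 2. HERC5 had 52.1% and 37.8% against 55.8% and 72.4%. The surroundings did not move with these genes. Other genes within 5 Mb had median Pol II changes of 0.0739 points around IFI44, 3.0 around ISG15, 1.72 around OAS2 and 2.21 around PARP9.

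For H3K4me3, limma called 2 of 43 genes worse (4.65%, all 0.75%), RSAD2 and CMPK2, and 0 better (all 0.016%). An unadjusted p under 0.05 was found at 6 of 43 (all 8.93%), OAS1, OAS3, IFIT1, HERC6, RSAD2 and CMPK2. The 2 calls were 1 region. RSAD2 and CMPK2 have start sites 15 bp apart on chromosome 2 and the same best summit in each of the 4 libraries, at positions 7005988 and 7005996 in parental and 7005790 and 7005895 in knockout libraries. The start of RSAD2 used here is an alternative start, and its canonical start had no promoter peak in any library. The summit ranked at 57.1% and 61.8% in parental and at 80.9% and 78.2% in SAP30-KO1 libraries, a difference of 20 points (SE 4.23, limma adjusted p = 0.00871). Both knockout libraries stood far behind both parental libraries. The call did not hold with lists limited to the shortest (17.9 points, limma adjusted p = 0.138). Nor did it hold with the log2 of the score as the response (limma adjusted p = 0.0835). It also did not hold without parental replicate 1 (17.7 points) or without parental replicate 2 (22.4 points). Over 31 other genes within 5 Mb, again without the listed genes, the median change was 3.1 points. SAP30 had no peak at this region in parental cells.

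Both knockout H3K4me3 ranks were worse at 12 of 43 genes (27.9%, all 28.2%) and better at 3 (6.98%, all 11.5%), shares near those of all genes or below them. The 12 were OAS3, IFIT1, IFIT3, ISG20, IFITM1, IFITM2, MX1, RSAD2, CMPK2, SAMD9L, HERC5 and HERC6. OAS3 ranked at 24.7% and 24.0% in parental and at 42.9% and 36.7% in knockout libraries, a difference of 15.5 points (SE 6.01, limma adjusted p = 0.390). The 3 with better ranks were IRF1, OAS1 and OAS2. IRF1 ranked at 5.46% and 17.1% against 2.37% and 3.18%, and OAS2 at 50.3% and 50.8% against 46.4% and 42.1%. OAS1, OAS3 and OAS2 lie in this order on chromosome 12, and their H3K4me3 ranks did not move one way.

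For H3K9Ac, limma called 0 of 40 genes (all 0.0% worse and 0.0083% better), and 1 of 40, IFI35, had an unadjusted p under 0.05 (all 7.39%). Knockout ranks were worse in both libraries at 10 of 40 (25%, all 22.1%), IFI35, IFIT3, IFIT5, IFITM1, XAF1, HERC5, PSMB8, PSMB9, TAP1 and B2M. They were better at 8 of 40 (20%, all 16.4%), IRF1, IRF7, USP18, OAS2, OASL, BST2, TRIM21 and IFI27. IFI35, which modulates innate signalling, ranked at 16.4% and 14.0% in parental and at 28.5% and 22.4% in knockout libraries, a difference of 10.2 points (SE 4.21, limma adjusted p = 0.666). XAF1, an inhibitor of XIAP, had 25.6% and 21.7% against 35.4% and 28.9%. IFITM1 had 32.3% and 19.9% against 32.8% and 38.1%, but the summit of parental replicate 2, at position 310129, lay at another start than the other 3, which lay between 314204 and 314328. Its change of 9.34 points was 1.64 with the canonical start alone and 2.48 with the window of 3000 bp. OASL had 51.6% and 65.3% against 40.5% and 46.0%, USP18 65.7% and 63.1% against 46.1% and 53.5%, and TRIM21, an antibody receptor inside the cell, 28.3% and 24.7% against 22.3% and 17.1%. These genes were named because the ranks of the lines did not overlap, so that separation was fixed by the choice. The 4 antigen processing genes all ranked worse, by 2.90 points at the shared PSMB9 and TAP1 region (SE 1.63, limma adjusted p = 0.696) and 5.33 points at B2M (SE 2.66, limma adjusted p = 0.684).

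**Figure D5:**
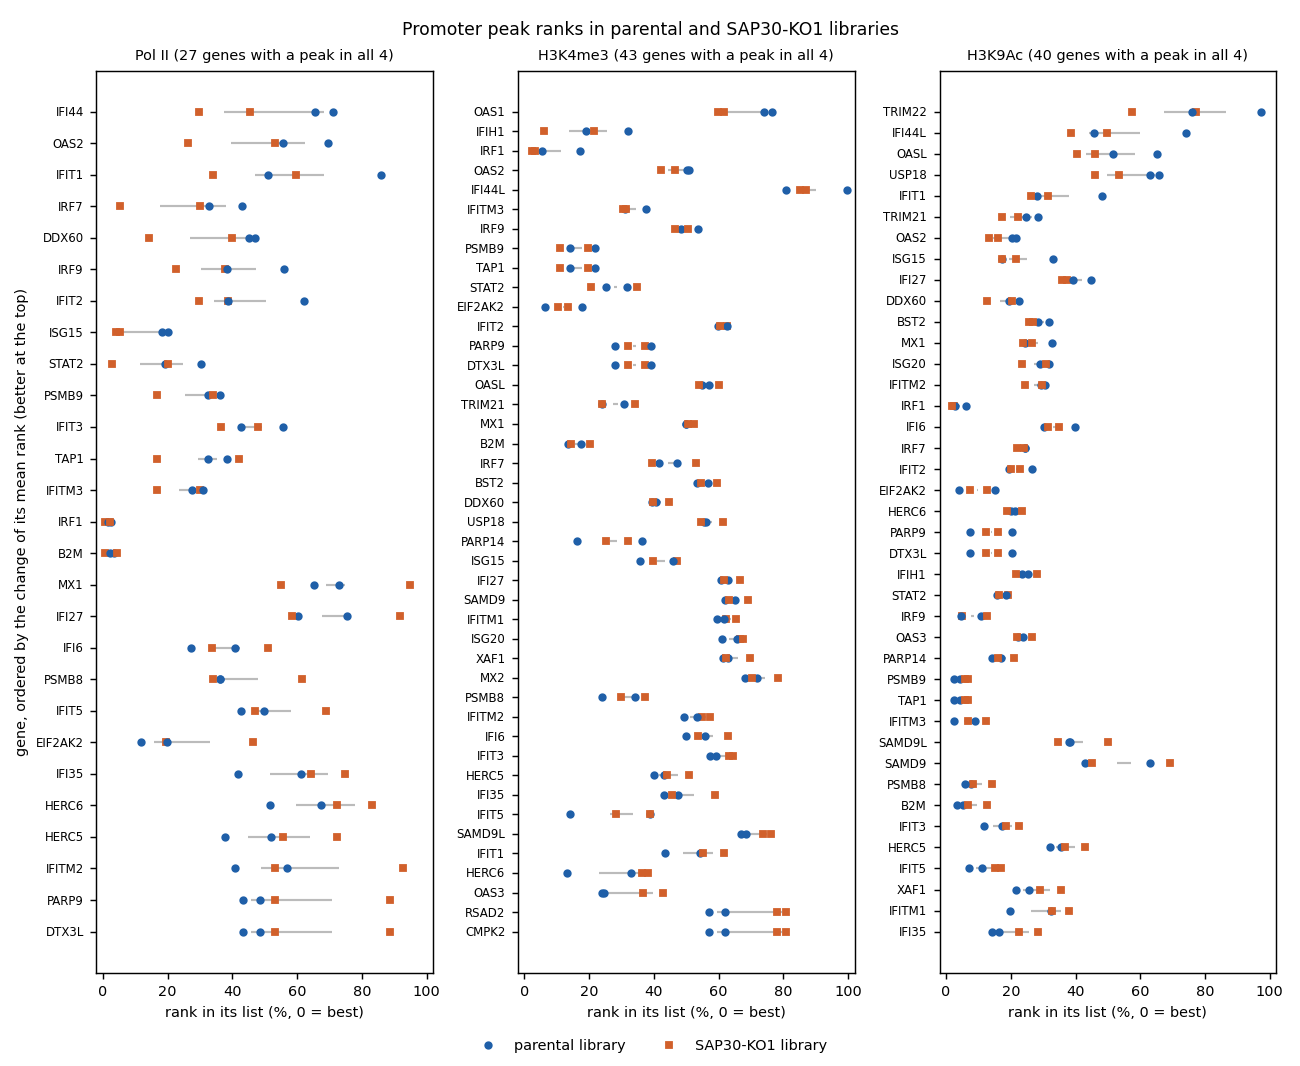
Promoter peak ranks (percent of the list, 0 is best) of interferon-stimulated genes in the 2 parental (blue circles) and 2 SAP30-KO1 libraries (orange squares) for Pol II (27 genes), H3K4me3 (43) and H3K9Ac (40), ordered by the change of the mean rank, with a grey line joining the 2 means. RSAD2 and CMPK2 close the H3K4me3 panel at 57.1% and 61.8% against 80.9% and 78.2%, OAS1 opens it, and the Pol II squares of many genes lie far apart.

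The tested genes were also read by SAP30 in the parental line. The median Pol II change was -0.677 points over the 25 tested genes with SAP30, and that of H3K4me3 was 2.21 points over 36 and that of H3K9Ac 0.485 points over 35. Over all protein-coding genes with SAP30 these medians were 1.49, 2.02 and 0.304 points.

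The other genes of the pathway were read by the same rules, from a list of 42 receptors, kinases, sensors, inhibitors, antigen presentation genes and interferons. SAP30 was present in both replicates at 34 (81.0%), SIN3A at 15 (35.7%), SIN3B at 28 (66.7%), parental Pol II at 33 (78.6%), H3K4me3 at 36 (85.7%) and H3K9Ac at 35 (83.3%). JAK1, a receptor kinase, had SAP30, SIN3A and SIN3B at mean ranks of 4.72%, 16.0% and 20.6%. The interferon genes IFNB1, IFNL1, IFNE and IFNK had no promoter peak in any of the 18 libraries. In the knockout, limma called H3K4me3 worse at 1 of 36 of these genes (all protein-coding genes 0.75%) and better at 0 of 36 (all 0.016%). The gene called was DHX58, a sensor of the RIG-I family, with a mean rank of 63.3% in parental and 80.5% in knockout libraries. Pol II was called at 0 of 29 genes (all 0.0% worse and 0.0% better), with 1 (TAP2) at an unadjusted p under 0.05 (all 6.82%). H3K9Ac was called at 0 of 35 (all 0.0% worse and 0.0083% better), with 1 (IFNAR1) at an unadjusted p under 0.05 (all 7.39%). Pol II was lost at 1 of 42 (all 1.34%), UBA7, the enzyme that activates ISG15.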

How the data were processed

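ChIP-Seq summit lists of 18 libraries were used (9 groups of 2). The 12 remaining samples, inputs and histone H3, were not analysed here. The deposited lists were made by the authors in each library by itself, and their score is the −log10 of a q-value. The submitters' processing notes name FastQC 0.11.2, Bowtie2 2.3.3.1, Picard, MACS2 2.1.0 and hg19. The MACS2 options, the control of each list and the sequencing depth are not given in the sources used here. Peak number and score both depend on depth and enrichment, so lists were compared through ranks. Tied scores, between 79.9% and 98.7% of a list, shared their average rank.

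Start sites of 20136 protein-coding genes were taken from the basic transcripts of GENCODE release 44, lifted to GRCh37. The best summit within 1000 bp of a start site gave the rank of a gene, so genes with many start sites had more chances (median 3 start sites here, 2 over all genes). The rank change was tested with limma 3.58.1 in R 4.3.3, with a mean trend, two-sided, over genes with a peak in all 4 libraries, Benjamini-Hochberg adjusted, at 0.05. Ranking and fitting were tested on simulated data. Motifs were searched in windows of 300 bases.

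The genes and lists were chosen with earlier results of these data known. Values in every library were given for genes past the threshold, with a lost or gained peak, the 3 largest mean changes each way per target among those without overlap, the 5 best mean SAP30 ranks, and those with SAP30 but no parental Pol II or the reverse. Other settings tried were windows of 500 and 3000 bp, the canonical start site, the better 50% of each list, lists of equal length, ranks among promoter summits, normal scores, the log2 of the score, a replicate block and each replicate left out in turn. Equal lengths for single genes and for all 18 lists were chosen after seeing the data.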

Additional observations from a re-analysis of the deposited data

How the results depend on the processing

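Counts of occupied genes depended on how far down a list was read. In the better-ranked 50% of each list SIN3A was present at 2 genes, SIN3B at 7, Pol II at 17 in parental and 15 in SAP30-KO1 cells, and H3K4me3 at 22 and 19. With each of the 18 lists limited to 10861 summits, SAP30 was present at 15, SIN3B at 6, Pol II at 18 and 14, H3K4me3 at 21 and 21, and H3K9Ac at 13 and 15. With the lists of a target limited to its shortest, Pol II was lost at 0 genes, the H3K4me3 ranks were worse at 7 and better at 5, the H3K9Ac ranks were worse at 6 and better at 11 with a median change of -0.511 points, and the Pol II ranks were worse at 7 and better at 4, so that the balance of worse and better turned for H3K9Ac and Pol II. The median Pol II change, -0.677 points, was -5.08 under this setting, -3.25 with the canonical start site and -3.65 with ranks among promoter summits. Ranks among promoter summits gave 5 better H3K4me3 ranks. H3K4me3 called 1 gene with the canonical start site, which leaves CMPK2 without RSAD2, and 1 with the log2 of the score as the response, which was OAS1 (limma adjusted p = 0.00216), and OAS1 was also called with ranks among promoter summits (0.00479). H3K9Ac was lost at 1 gene with the window of 500 bp. The causes were not tested.

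Leaving out each replicate in turn gave between 1 and 4 lost and between 1 and 3 gained Pol II peaks, between 0 and 3 H3K4me3 calls, between 0 and 1 lost or gained H3K4me3 and H3K9Ac peaks, and a median H3K9Ac change between -1.94 and 1.32 points. With 1 library left in a line, its spread was taken from the other line. The median H3K4me3 change, 2.27 points, was -0.170 with lists limited to the shortest and -0.0585 without SAP30-KO1 replicate 1. OAS1 passed the H3K4me3 threshold without SAP30-KO1 replicate 1 (limma adjusted p = 0.0393). For the counts and medians that summarise a comparison, 159 values under these settings stayed within 1.5 times the count or within 1 SD of the median, and 39 did not.

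Replicate numbers are shared by the lines, but the deviations of same-numbered libraries were uncorrelated (correlations across genes of 0.0075 in Pol II, -0.0189 in H3K4me3 and -0.0136 in H3K9Ac). With the replicate block, limma called 2 genes for H3K4me3 and 0 for the other targets, as without it. Depth is unknown, so a missing peak may be a peak below the threshold of its list.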
